A study of Homo sapiens with 4 samples.

Results

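The collagen chains were taken as every gene of the deposited table whose symbol is COL, a number, A and a number, which gave 44 of 60623 genes. The rule used the name alone and no measured value, and it left out antisense transcripts and pseudogenes such as COL18A1-AS1 and COL6A4P1. By the type of collagen they build, 11 chains were fibrillar, 6 belonged to basement membrane (type IV) collagen, 10 to the FACIT group, 5 to beaded filaments (type VI), 4 were transmembrane, 3 were short-chain network chains, 2 were multiplexins and 1 formed anchoring fibrils (type VII). The remaining 2, COL26A1 and COL28A1, were kept apart.

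A collagen molecule is a trimer of alpha chains wound into a helix, and each chain is encoded by its own gene. Fibrillar collagens form the cables of connective tissue, type IV collagen forms the sheet under epithelia, FACIT collagens sit on the surface of fibrils, and transmembrane collagens stay anchored in the plasma membrane. Many types are heterotrimers, so that a cell needs transcripts of several genes to build them. CBX7 is a chromodomain subunit of Polycomb repressive complex 1, a complex that silences genes.

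T24 cells, a line derived from a carcinoma of the human bladder, were sequenced as total RNA in 2 control libraries and in 2 libraries from cells overexpressing CBX7, and both groups were grown in RPMI medium with serum. The CBX7 cells carried full-length CBX7 on a FLAG-tagging pCDH construct, whereas the vector that the control cells carried and the number of clones behind each line are not given in the sources used here. No source says that the libraries of a group came from separate cultures, so p-values measure the spread between these libraries, which may be technical.

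The expected counts summed to between 20800910 and 25135488 per library, and a count of 0 allows at most 3 counts, or 0.119 to 0.144 CPM (counts scaled by library size), which covers counting error only. Expected counts of the introduced gene CBX7 were 261.4 and 203.3 in the control libraries, against 42852 and 35641 in the CBX7 libraries, and its log2 fold change was 7.35 ± 0.18. Here and below, log2 fold changes are those of CBX7 over control cells, and a value after ± is the standard error. Of 13 urothelial or epithelial markers, 5 reached a mean of 1 TPM (relative transcript abundance, scaled by gene length). These included the simple-epithelial keratins KRT7, KRT8 and KRT18, at means of 1273, 900.1 and 1184 TPM, whereas KRT5 was listed at 0 and CDH1 had at most 2 counts in a library. GATA3, a luminal transcription factor gene, had 3 and 4 counts in control cells and 14 and 22 counts in CBX7 cells (2.28 ± 0.56 on the log2 scale, adjusted p = 0.602, edgeR). Of 9 fibroblast markers, ACTA2 alone reached 1 TPM, and DPT and PI16 were listed at 0 in every library. The summed fibroblast markers were at 6.66 and 6.93 TPM in control cells and at 6.66 and 7.79 TPM in CBX7 cells. The endothelial markers, led by CDH5 with 13 and 12 counts in control cells and 3 and 7 counts in CBX7 cells, summed to at most 0.34 TPM, and the leukocyte markers, nearly all of them CD68, to 11.5 and 9.45 TPM in control cells and 6.29 and 7.05 TPM in CBX7 cells. The part of other cells in the values below was not tested.

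To determine which chains T24 cells make, levels were compared on the TPM scale, and a chain was counted as made at a mean of at least 1 TPM over the 4 libraries. This held for 16 of the 44 chains, while 21 lay between 0 and 1 TPM and 7 had no count in any library (COL4A3, COL6A5, COL9A1, COL20A1, COL23A1, COL25A1 and COL26A1). Over all genes, 22.2% reached that mean. The 44 chains summed to 698.1 and 719.2 TPM in control cells and to 686.5 and 838.2 TPM in CBX7 cells.

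The most abundant chains were COL6A2 and COL6A1, which encode chains of type VI collagen, a beaded filament near the cell surface. COL6A2 (ENSG00000142173) was at 180.3 and 177.1 TPM in control cells and at 189.4 and 205.9 TPM in CBX7 cells. COL6A1 (ENSG00000142156) was at 127.3 and 125.1 TPM in control cells and at 137.2 and 158.3 TPM in CBX7 cells. Together they held between 42.02% and 47.6% of the summed collagen TPM of a library. For both genes the CBX7 libraries lay above the control libraries.

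Among the 11 fibrillar chains, 3 were made. COL5A2, a chain of type V collagen, was at 66.9 and 75.2 TPM in control cells and at 54.1 and 88.2 TPM in CBX7 cells, so the groups overlapped. COL27A1, a fibrillar chain best known from cartilage, was at 12.1 and 13.3 TPM in control cells and at 10.5 and 17.5 TPM in CBX7 cells. COL1A1, which encodes the major chain of type I collagen in bone and skin, was barely present. It had 60 and 54 counts (1.03 and 1.26 TPM) in control cells and 87 and 106 counts (0.88 and 4.40 TPM) in CBX7 cells. The type III chain COL3A1 had 8 to 18 counts per library, COL11A2 had 6 to 14, and COL5A3, COL11A1, COL24A1 and COL2A1 had at most 3 counts over all 4 libraries.

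In the basement membrane group, COL4A2 was at 69.2 and 78.9 TPM in control cells and at 54.8 and 76.4 TPM in CBX7 cells. COL4A1, its partner in the common form of type IV collagen, was at 15.4 and 18.5 TPM in control cells and at 12.9 and 19.2 TPM in CBX7 cells. COL4A5 was at 4.78 and 7.27 TPM in control cells and at 3.01 and 7.80 TPM in CBX7 cells. All 3 genes had their lowest value in CBX7 replicate 1, and the groups overlapped. COL4A6 stayed under 1 TPM in every library, COL4A4 had 3 to 14 counts per library, and COL4A3 had no count.

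Of the 10 FACIT chains, 3 were made. COL12A1, which encodes a long chain of type XII collagen, was at 30.2 and 34.8 TPM in control cells and at 19.8 and 35.3 TPM in CBX7 cells. COL9A3, a type IX chain, was at 21.2 and 22.1 TPM in control cells and at 32.6 and 26.5 TPM in CBX7 cells. COL16A1 was less abundant, at 4.07 to 6.22 TPM in the 4 libraries. COL14A1, COL19A1, COL21A1 and COL22A1 had at most 2 counts in a library, and COL9A1 and COL20A1 had none.

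Both transmembrane chains that were detected are linked to epithelia or to cell adhesion. COL13A1 was at 29.2 and 31.5 TPM in control cells and at 41.6 and 44.6 TPM in CBX7 cells. COL17A1, the hemidesmosomal collagen that ties basal epithelial cells to their basement membrane, was at 13.4 and 12.3 TPM in control cells and at 10.8 and 10.2 TPM in CBX7 cells. COL23A1 and COL25A1 had no count in any library. COL7A1, whose product forms the anchoring fibrils beneath the basement membrane, was at 41.2 and 39.9 TPM in control cells and at 37.6 and 37.3 TPM in CBX7 cells. COL18A1, the multiplexin from which endostatin is released, was at 51.9 and 50.2 TPM in control cells and at 57.4 and 68.7 TPM in CBX7 cells. The other multiplexin, COL15A1, had 0 to 3 counts per library. Among the short-chain chains, COL8A1 was at 25.04 and 25.5 TPM in control cells and at 17.9 and 30.3 TPM in CBX7 cells. COL10A1, the collagen of hypertrophic cartilage, had 1 count over the 4 libraries, and COL28A1 had at most 3.38 expected counts in a library.

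**Figure D1:**
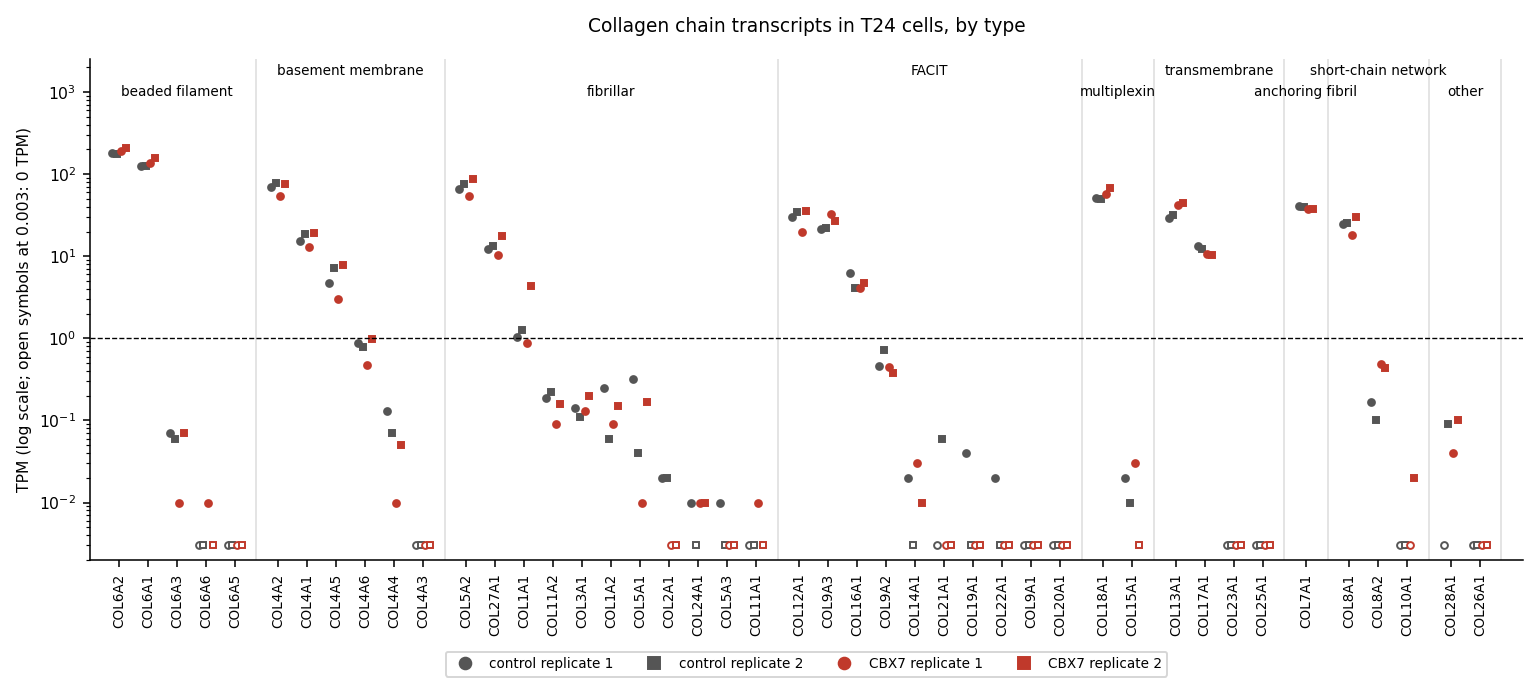
TPM (log axis) of each of the 44 chains in the 4 libraries, grouped by collagen type, with open symbols for 0 TPM and a dashed line at 1 TPM. COL6A2 and COL6A1 lie highest, 16 chains have a mean above the line, and 7 chains are at 0 in all 4 libraries.

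Partner chains of the same collagen were present at very unequal levels. COL6A2 and COL6A1 were near balance, with a TPM ratio of 1.42 and 1.42 in control cells against 1.38 and 1.30 in CBX7 cells. COL6A3, which completes the classical type VI trimer, had only 2 to 12 counts per library and at most 0.07 TPM. Its possible substitutes COL6A5 and COL6A6 had no count and 1 count over the 4 libraries. In the same way COL5A2 was abundant, whereas COL5A1, the chain common to nearly all type V trimers, had 2 to 8 counts per library. COL9A3 had 255 to 557.9 counts, COL9A2 had 11 to 18, and COL9A1 had none. COL1A2, the partner of COL1A1, had 3 to 11 counts.

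Within type IV collagen the ratio of COL4A2 to COL4A1 was 4.51 and 4.27 in control cells against 4.25 and 3.97 in CBX7 cells. The ratio of COL4A5 to COL4A6 was 5.49 and 9.20 in control cells against 6.27 and 7.96 in CBX7 cells. Each of these pairs therefore kept its order in all 4 libraries, and the ratios of the groups overlapped for COL4A5 to COL4A6. These are transcript levels per length, and protein was not measured.

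**Figure D2:**
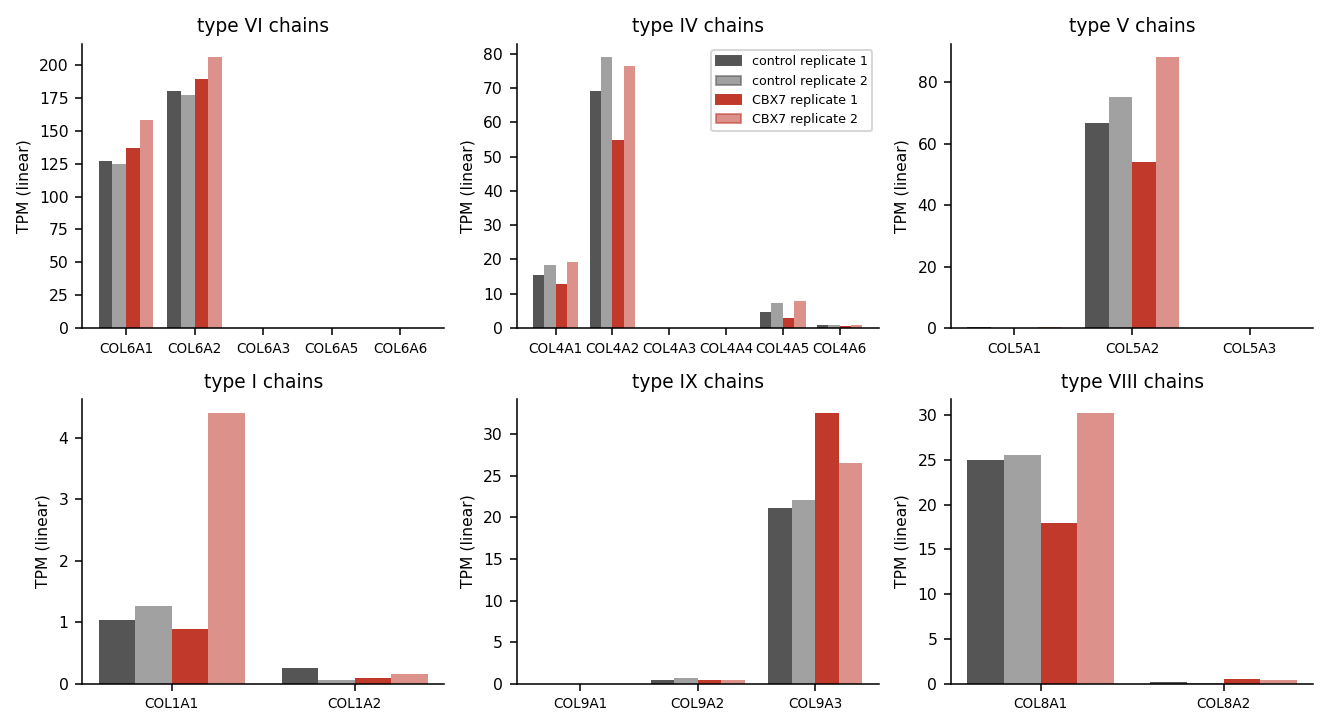
TPM (linear axis from 0) of the chains of types VI, IV, V, I, IX and VIII in each library, 1 bar per library. COL6A1 and COL6A2 are high beside COL6A3 of at most 0.07 TPM, and in types V, VIII and IX a single chain carries nearly all of the signal.

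COL4A1 and COL4A2 lie head to head on chromosome 13, and their transcription starts in RefSeq (GRCh38.p14) are separated by 126 bases, so both genes share the sequence between them. In GENCODE the outermost models of the genes overlap. The stretch is shown because COL4A2 was 3.97 to 4.51 times as abundant as COL4A1, which starts from its other end. It is given on the strand of COL4A2, with CCAAT (searched on both strands) in capitals, at chr13:110307158-110307283 on the plus strand.
COL4A1-COL4A2: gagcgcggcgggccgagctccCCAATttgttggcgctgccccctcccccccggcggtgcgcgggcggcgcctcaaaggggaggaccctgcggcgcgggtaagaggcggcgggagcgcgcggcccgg
It holds 20 CpG dinucleotides.

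Other collagen genes that neighbour each other had like levels in some places and unlike levels in others. COL3A1 and COL5A2 are separated by 19.1 kb on chromosome 2 (GENCODE release 29, GRCh38), and their mean levels were 0.145 TPM and 71.1 TPM. COL4A4 and COL4A3 share a head-to-head arrangement on chromosome 2 with a gap of 111 bases, and both were near or at 0. COL18A1, COL6A1 and COL6A2 follow each other on the plus strand of chromosome 21. COL18A1 ends 468.0 kb before COL6A1, and COL6A1 ends 93.0 kb before COL6A2. All of these chromosome 21 chains were abundant, at mean levels of 57.0, 137.0 and 188.2 TPM.

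The comparison of CBX7 with control cells was then read for the chains from a fit over all genes. Of the 44 chains, 23 had enough counts to be tested and 21 were removed by the filter on low counts. None of the 23 passed an adjusted p of 0.05 (Benjamini-Hochberg over 14862 genes, quasi-likelihood test of edgeR), where 0.0202% of all genes did. With DESeq2's Wald test the count was also 0, beside 0.225% of all genes. At an unadjusted p under 0.05 there were 5 chains, or 21.7% of those tested, all higher with CBX7, beside 3.42% of all genes. No chain was lower at that p, beside 1.32% of all genes. The median log2 fold change of the tested chains was 0.02, against 0.00 over all genes, and 12 of the 23 were above 0, a share of 52.2% beside 50.3% of all genes. With 2 libraries per group an exact permutation test of a single gene cannot go below p = 0.333.

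The count of chains called rested on the model and on single libraries. With the replicate number as a further term 3 chains passed (COL8A2, COL13A1 and COL9A3, beside 2.43% of all genes), and with the length correction described below as well 4 did (COL8A2, COL13A1, COL18A1 and COL6A1, beside 1.82%). Without CBX7 replicate 1 there were 4 (COL8A2, COL13A1, COL18A1 and COL27A1, beside 2.59% of all genes). Without CBX7 replicate 2 there were 11, of which COL8A2, COL13A1, COL18A1, COL9A3, COL6A1 and COL6A2 were higher and COL12A1, COL4A1, COL4A2, COL4A5 and COL8A1 lower, beside 35.5% of all genes. Leaving out control replicate 1 gave 0 (beside 0.384% of all genes), as did leaving out control replicate 2 (beside 0.291%).

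By TMM-normalized CPM, a scale that adjusts for library size and composition but not for gene length, 8 chains lay higher in both CBX7 libraries than in both control libraries (34.8% of those tested, beside 15.4% of all genes). Another 5, COL7A1, COL17A1, COL4A4, COL4A6 and COL11A2, lay lower (21.7%, beside 14.8% of all genes), and the groups overlapped for 10.

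COL8A2 had the largest log2 fold change of the tested chains. It encodes a short chain of type VIII collagen, which forms hexagonal lattices with COL8A1 in the membrane behind the cornea and around vessels. Its gene (ENSG00000171812) spans 36095236 to 36125220 of chromosome 1 (GRCh38, minus strand). It had 7 and 5 counts in control cells and 46 and 31 counts in CBX7 cells, which is 0.293 and 0.238 CPM against 1.905 and 1.39 CPM, with no overlap. The log2 fold change was 2.60 ± 0.42, and the adjusted p was 0.309 (edgeR). Its TPM was 0.17 and 0.10 in control cells against 0.49 and 0.44 in CBX7 cells, with less TPM per count in the CBX7 libraries. The difference was 0.37 on the scale of log2(TPM + 1) and 1.28 on that of log2(TPM + 0.1), both of which understate the change of low genes. When genes with low counts were kept, the adjusted p was 6.46e-05 in the same test, a setting in which 1.01% of all genes passed. The level stayed under 0.5 TPM in every library, far below its partner COL8A1, whose log2 fold change was 0.02 ± 0.21.

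COL13A1 (ENSG00000197467, chromosome 10 from 69801867 to 69964275, plus strand) had 40.4 and 40.9 CPM in control cells and 67.4 and 54.0 CPM in CBX7 cells. The groups did not overlap, and the CBX7 libraries differed more from each other than the control libraries did. The log2 fold change was 0.58 ± 0.16, and the adjusted p was 0.718 (edgeR). COL18A1 had 199.99 and 181.6 CPM in control cells and 246.1 and 244.8 CPM in CBX7 cells, and its log2 fold change was 0.36 ± 0.13 (adjusted p = 0.943). Its exons overlap those of SLC19A1, a folate carrier gene on the opposite strand at 21.5 TPM, whose own log2 fold change was 0.18 ± 0.14. Whether counting used strand is not given in the sources used here, so reads of such a pair cannot be told apart.

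COL9A3 had 12.2 and 12.1 CPM in control cells and 23.1 and 14.4 CPM in CBX7 cells, so CBX7 replicate 1 carried most of the difference. Its log2 fold change was 0.63 ± 0.25 (adjusted p = 0.951), and 0.25 when CBX7 replicate 1 was left out. The exons of COL9A3 overlap those of TCFL5 on the opposite strand, a transcription factor gene at 18.0 TPM with a log2 fold change of 0.08 ± 0.13. COL1A1 had 2.51 and 2.57 CPM in control cells and 3.60 and 4.74 CPM in CBX7 cells, and its log2 fold change was 0.71 ± 0.25 (adjusted p = 0.943). The TPM values of COL1A1 did not follow its counts. CBX7 replicate 1 was listed at 0.88 TPM with 87 counts, and CBX7 replicate 2 at 4.40 TPM with 106 counts. After division by the median of each library, the TPM per count of COL1A1 varied 3.11-fold over the libraries, against a median of 1.10-fold over 13931 genes. The log2 fold change above is from its counts, and on the TPM scales of pseudocount 1 and 0.1 it was 0.57 ± 0.49 and 0.76 ± 0.74. Its place among the chains made rests on these TPM values.

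The type VI chains and COL3A1 complete the set that was higher in both CBX7 libraries. COL6A1 had 345.7 and 326.6 CPM in control cells and 413.9 and 415.0 CPM in CBX7 cells, and its log2 fold change was 0.30 ± 0.12 (adjusted p = 0.951). COL6A2 had 441.3 and 407.7 CPM in control cells and 549.3 and 476.9 CPM in CBX7 cells. Its log2 fold change was 0.27 ± 0.14 (adjusted p = 0.951, edgeR), or 0.17 without CBX7 replicate 1. On the TPM scales of pseudocount 1 and 0.1 it was 0.14 and 0.14, where the median over all genes was -0.081 and -0.10. COL3A1 had 14 and 8 counts in control cells against 16 and 18 counts in CBX7 cells, and its log2 fold change was 0.58 ± 0.43, which ran from 0.32 without control replicate 2 to 0.93 without control replicate 1. For none of these did the difference pass the test.

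**Figure D3:**
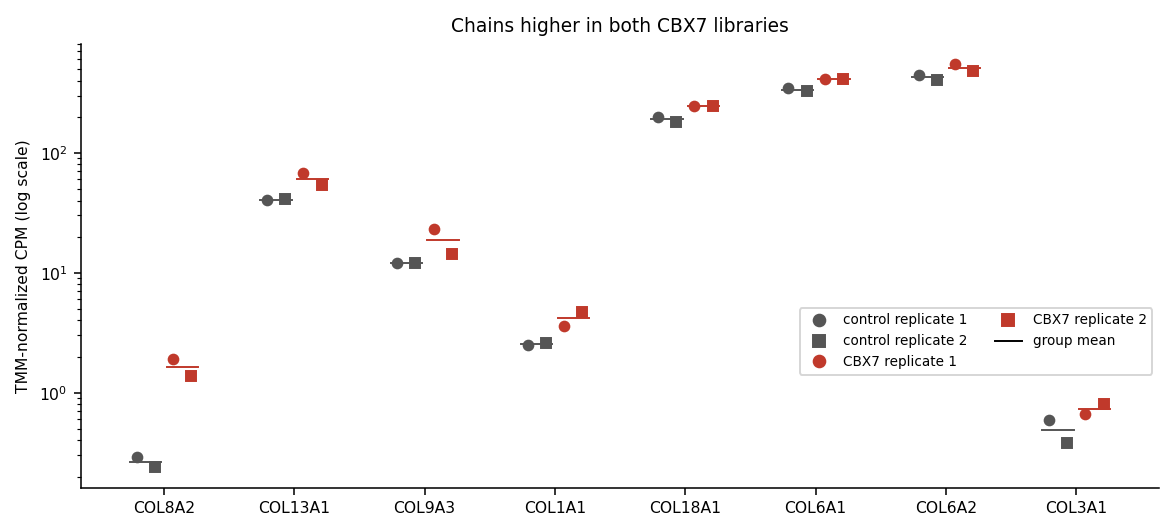
TMM-normalized CPM (log axis) of the 8 chains for which both CBX7 libraries lie above both control libraries, with 1 symbol per library and a line at each group mean. The gap is widest for COL8A2, from 0.238 and 0.293 CPM to 1.39 and 1.905 CPM, and narrow for COL6A2 and COL6A1.

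The promoters of COL8A2 and COL13A1, the chains with the lowest p-values, are shown with those of the abundant COL6A2 and its nearly absent partner COL6A3. The COL6A2 and COL6A3 pair differs in level, and COL6A2 was itself higher in both CBX7 libraries. Each is the 250 bases before the RefSeq start (GRCh38.p14), 5′ to 3′ on the strand of the gene, with CpG dinucleotides in capitals. The positions are chr1:36125223-36125472 (minus strand) for COL8A2, chr10:69801656-69801905 (plus strand) for COL13A1, chr21:46097862-46098111 (plus strand) for COL6A2 and chr2:237414165-237414414 (minus strand) for COL6A3.
COL8A2: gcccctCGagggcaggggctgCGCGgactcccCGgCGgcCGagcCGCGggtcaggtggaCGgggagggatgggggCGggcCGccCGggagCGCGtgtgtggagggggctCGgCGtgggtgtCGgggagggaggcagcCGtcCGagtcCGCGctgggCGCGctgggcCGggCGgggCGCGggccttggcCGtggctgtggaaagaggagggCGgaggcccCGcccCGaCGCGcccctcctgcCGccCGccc
COL13A1: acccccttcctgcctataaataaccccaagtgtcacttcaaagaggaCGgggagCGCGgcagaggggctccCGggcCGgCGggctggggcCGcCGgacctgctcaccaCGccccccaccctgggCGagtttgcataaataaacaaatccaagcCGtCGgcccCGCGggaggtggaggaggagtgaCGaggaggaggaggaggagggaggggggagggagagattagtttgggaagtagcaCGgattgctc
COL6A2: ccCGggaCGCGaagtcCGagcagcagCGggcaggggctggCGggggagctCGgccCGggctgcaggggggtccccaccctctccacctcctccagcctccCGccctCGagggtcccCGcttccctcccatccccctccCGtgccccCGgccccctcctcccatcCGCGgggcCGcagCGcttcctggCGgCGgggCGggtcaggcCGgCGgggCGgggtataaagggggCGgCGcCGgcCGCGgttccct
COL6A3: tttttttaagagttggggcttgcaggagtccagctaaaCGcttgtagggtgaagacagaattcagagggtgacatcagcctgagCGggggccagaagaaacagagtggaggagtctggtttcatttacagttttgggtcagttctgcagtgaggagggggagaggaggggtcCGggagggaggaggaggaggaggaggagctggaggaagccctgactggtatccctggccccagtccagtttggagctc
There are 35 CpG in the COL8A2 window, 16 in that of COL13A1, 28 in that of COL6A2 and 3 in that of COL6A3. In GENCODE the outermost models of COL13A1, COL6A2 and COL6A3 begin inside these windows, at 69801867, 46098097 and 237414375. Most of the COL6A3 window therefore lies within its GENCODE model.

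CpG number was set beside level for the 44 starts that the RefSeq table held, which belong to 32 of the 44 chains and to 11 of the 16 chains made. COL6A1, COL5A2, COL9A3, COL8A1 and COL1A1 were not among them. The median number of CpG in 250 bases was 16 for starts of chains at 1 TPM or more, 11.5 for starts of the other chains and 11 over 35116 starts of all genes. Across the 44 starts, of which some belong to the same gene, Spearman's correlation of CpG number with mean TPM was 0.19. COL25A1 had 32 CpG and no count, whereas COL17A1 had 1 CpG and a mean of 11.7 TPM. The letters TATAAA, searched on both strands, were found before 5 of 12 starts of chains at 1 TPM or more, before 3 of 32 starts of the other chains and before 10.7% of all starts. CCAAT, searched on both strands, was found before 4 of the 12, before 8 of the 32 and before 32.0% of all starts. For GGGCGG, searched in the same way, this was 9 of the 12, 15 of the 32 and 42.6% of all starts.

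Of the basement membrane chains 5 were tested and none passed. The log2 fold change was -0.13 ± 0.15 for COL4A2, -0.10 ± 0.25 for COL4A1, -0.22 ± 0.25 for COL4A5 and -0.29 ± 0.28 for COL4A6. These values depended on CBX7 replicate 1, without which they were 0.02, 0.21, 0.10 and -0.0078 in the same order, and COL4A1 was also at 0.03 without control replicate 2. COL4A4 had 14 and 11 counts in control cells and 3 and 8 counts in CBX7 cells, and its value of -1.21 ± 0.59 ran from -2.12 without CBX7 replicate 2 to -0.62 without CBX7 replicate 1. Among the scarce chains, COL11A2 was at -0.59 ± 0.50, COL6A3 at -0.60 ± 0.80 and COL9A2 at 0.10 ± 0.43. Without CBX7 replicate 1 these were -0.17, 0.17 and -0.23, and without CBX7 replicate 2 they were -1.15, -2.20 and 0.36. COL12A1 was at -0.27 ± 0.34, COL17A1 at -0.26 ± 0.13 and COL7A1 at -0.13 ± 0.12. For COL17A1 and COL7A1 the groups did not overlap, with 25.9 and 25.2 CPM against 22.3 and 20.4 CPM for COL17A1 and with 132.7 and 132.7 CPM against 120.0 and 123.0 CPM for COL7A1. For COL12A1 the CBX7 libraries differed more from each other, at 96.9 and 195.1 CPM, than their mean did from that of the control libraries, at 155.0 and 196.2 CPM. Without CBX7 replicate 1 its log2 fold change was 0.16, and without CBX7 replicate 2 it was -0.86.

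The difference between the libraries of a group went with gene length. Collagen genes are long, with a median deposited length of 6446 bases among the tested chains, against 2867 bases over all tested genes. Over the 11077 genes that averaged 100 counts or more, the log2 ratio of replicate 1 to replicate 2 had a Spearman correlation with length of -0.70 in CBX7 cells and of -0.49 in control cells, so long genes were lower in replicate 1, above all within the CBX7 group. Across the 15 chains with that many counts the correlation was -0.60 in CBX7 cells and -0.37 in control cells. COL12A1, the longest at 11725 bases, had a log2 ratio of -1.01 between the CBX7 libraries, and COL9A3, the shortest of them at 2497 bases, had 0.68. Several chains left this order within CBX7 cells. COL8A1 had a ratio of -0.53 at 3029 bases, COL16A1 one of 0.27 at 5418 bases, COL17A1 one of 0.13 at 5612 bases and COL7A1 one of -0.04 at 9276 bases. Genes within a library are not independent replicates, and the part of this trend in single chains was not tested beyond the correction given next.

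An offset that removes the trend on gene length from each library was then added to the fit. COL4A1 turned to 0.01 and COL4A2 to -0.0037, COL16A1 from -0.07 to 0.05 and COL7A1 to 0.08, and COL12A1 was at -0.12. COL17A1 moved from -0.26 to -0.14, COL4A5 from -0.22 to -0.11 and COL4A6 from -0.29 to -0.18. COL27A1 moved from 0.17 ± 0.19 to 0.31 ± 0.08 and COL5A2 from 0.07 ± 0.17 to 0.20 ± 0.07. The chains that were higher with CBX7 kept their direction, with 0.58 for COL9A3, 0.59 for COL13A1, 0.51 for COL18A1, 0.84 for COL1A1, 0.36 for COL6A1, 0.30 for COL6A2, 0.68 for COL3A1 and 2.69 for COL8A2. None of the 23 chains passed the adjusted threshold after this correction, beside 0.0135% of all genes, and the lowest adjusted p was 0.172, for COL8A2.

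**Figure D4:**
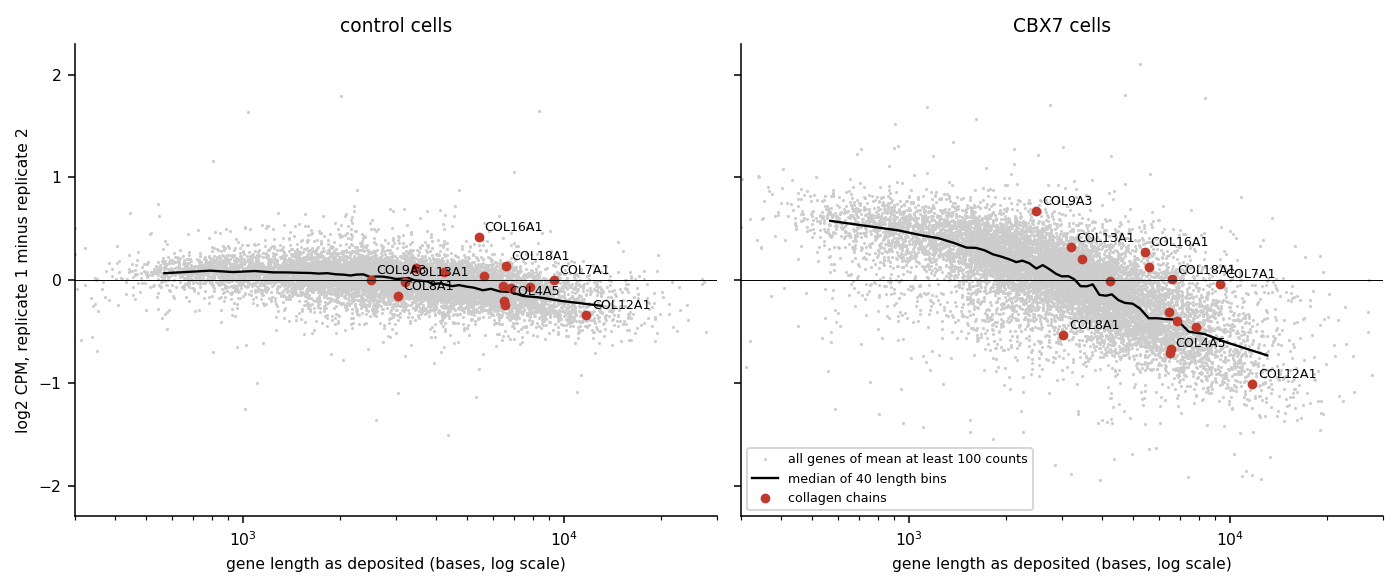
Log2 CPM of replicate 1 minus replicate 2 against gene length (bases, log axis) within control cells and within CBX7 cells, for all genes of at least 100 counts on average (grey), their binned median (line) and the collagen chains (red). The line falls with length, more steeply in CBX7 cells, and COL12A1 lies lowest of the chains there, at -1.01.

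**Figure D5:**
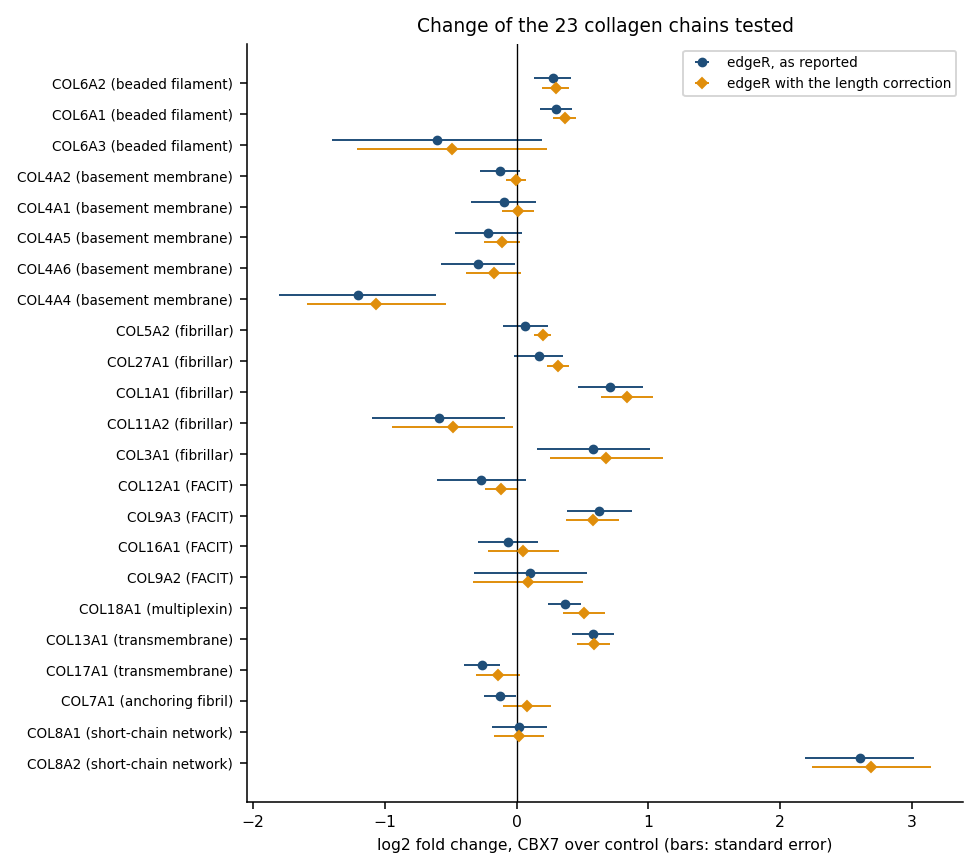
Log2 fold change of CBX7 over control for the 23 chains tested, with standard errors, before (blue) and after (orange) the length correction, labelled by collagen type. COL8A2 stands apart at 2.60 and 2.69, the type VI chains COL6A1 and COL6A2 lie above 0 in both fits, and COL4A1, COL4A2 and COL7A1 lie near 0 after the correction.

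The machinery that modifies and handles collagen was present and showed no called change. Of 35 processing genes, 31 were tested and 28 had a mean of at least 1 TPM. None passed an adjusted p of 0.05 in edgeR's test, beside 0.0202% of all genes. At an unadjusted p under 0.05, 2 were higher with CBX7, which is 6.45% of those tested beside 3.42% of all genes. None was lower at that p, beside 1.32% of all genes. P4HB, a subunit of prolyl 4-hydroxylase, was the most abundant of the prolyl hydroxylation genes at a mean of 557.5 TPM (log2 fold change 0.06 ± 0.16). SERPINH1, the collagen chaperone, was at 153.6 TPM (0.13 ± 0.13, or 0.042 without CBX7 replicate 1 and 0.21 without CBX7 replicate 2), and the crosslinking enzyme gene LOXL2 was at 162.8 TPM (-0.12 ± 0.12). PLOD2, which encodes a lysyl hydroxylase, was at 130.05 TPM with a log2 fold change of -0.27 ± 0.15 (-0.11 without CBX7 replicate 1 and -0.44 without CBX7 replicate 2), and BMP1, which encodes the protease that removes the C-terminal propeptide of fibrillar collagens, was at 8.98 TPM (0.07 ± 0.14).

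P3H3, a gene of the prolyl 3-hydroxylase family, had 1119 and 981 counts in control cells and 1837 and 1219 in CBX7 cells, and its log2 fold change was 0.48 ± 0.19 (adjusted p = 0.951), which ran from 0.23 without CBX7 replicate 1 to 0.70 without CBX7 replicate 2. LOXL1, a lysyl oxidase gene, had 7 and 5 counts in control cells and 26 and 15 in CBX7 cells, and its log2 fold change was 1.70 ± 0.48 (adjusted p = 0.752). For both genes the CBX7 libraries lay above the control libraries, and neither passed the test.

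Of 10 collagen receptor genes, 6 were tested and none had an unadjusted p under 0.05 in edgeR's test, beside 4.74% of all genes. ITGB1, the beta subunit common to the collagen-binding integrins, was the most abundant at a mean of 398.9 TPM, with a log2 fold change of -0.31 ± 0.15, and of -0.17 without CBX7 replicate 1. Of the others, the endocytic receptor gene MRC2 was at 33.3 TPM (0.26 ± 0.13) and the discoidin domain receptor gene DDR1 at 17.6 TPM (0.13 ± 0.14, or 0.21 without CBX7 replicate 1 and 0.040 without CBX7 replicate 2). ITGA11 and ITGA10 had 2 to 11 counts per library.

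Among 9 genes of matrix proteins that bind collagen, 4 were tested and none passed the adjusted threshold in edgeR's test, beside 0.0202% of all genes. At an unadjusted p under 0.05, 1 of the 4 was higher (BGN, beside 3.42% of all genes) and 1 was lower (FN1, beside 1.32%). FN1, which encodes fibronectin, had 42238 and 40721 counts in control cells and 16640 and 25284 counts in CBX7 cells. Its log2 fold change was -1.03 ± 0.25 (adjusted p = 0.597, edgeR). Without CBX7 replicate 1 it was -0.71, without CBX7 replicate 2 it was -1.43, and with the length correction it was -0.89 ± 0.08. FN1 was lower in both CBX7 libraries than in both control libraries. With DESeq2's Wald test its adjusted p was 0.00739, a setting in which 0.225% of all genes passed. DCN, the gene of the proteoglycan decorin, had 3 to 10 counts per library and was not tested. BGN, which encodes the small proteoglycan biglycan, had 3 and 1 counts in control cells and 23 and 22 counts in CBX7 cells, with an adjusted p of 0.327 (edgeR). With no filter on low counts, 1.01% of all genes passed in edgeR's test. The adjusted p was then 0.000459 for BGN and 1.18e-08 for FN1, whose log2 fold change was -1.02 ± 0.15. FN1 is not a gene of low counts, and that fit set no limit on how far the spread of a gene was drawn to that of all genes.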

How the data were processed

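The authors deposited, for each gene and library, an expected count that need not be whole, a TPM value, the length of the gene, mean TPM values per group, and results of their own comparison (ratios and p-values), of which the last 2 kinds were not used. The submitters' processing notes name cutadapt 1.9.1, HISAT2 2.0.1, HTSeq 0.6.1, DESeq2 and hg19 without a role. How counts that are not whole arose is not given in the sources used here. Gene positions were looked up by identifier in GENCODE release 29 on GRCh38, which held 96.5% of the identifiers.

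Rounded expected counts entered glmQLFit and glmQLFTest of edgeR 4.0.16 (R 4.3.3) after filterByExpr and TMM scaling, with no term beside the group, and p-values were adjusted by Benjamini-Hochberg. A standard error is the fold change on the log2 scale over the root of the F statistic. Alternatives used DESeq2 1.42.0 and limma 3.58.1 on log2(TPM + 1) and log2(TPM + 0.1). The length correction is an offset from a loess trend of each library on log2 gene length. The edgeR fit, with and without the length correction, and DESeq2's test were run on simulated counts with the same spread for every gene. That run does not show how well they suit these libraries.

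Chains were chosen by name, and the lists, tests and alternatives with earlier results of these data known. Named are chains at 1 TPM or more or with an unadjusted p under 0.05, chains at 0, partner chains, and in each class of the other lists the most abundant member and members with an unadjusted p under 0.05. A few further low chains were named after their values were seen. The libraries of a group differed by a chi-square per degree of freedom of 6.06 in control cells and 54.7 in CBX7 cells, so none was a copy.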

Additional observations from a re-analysis of the deposited data

How the results depend on the processing

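No chain was called in the fit reported, with DESeq2's size factors, DESeq2's Wald test, the newer quasi-likelihood method, the length correction or limma on either TPM scale. With no filter 1 chain was called (COL8A2), and at an unadjusted p under 0.05 there were 5. Leaving out each library gave 0 to 11 chains, 45 to 5491 genes over all genes and 0 to 16 of the other collagen genes. The lone library of a group is then assumed to vary like the other group, and the highest counts came without CBX7 replicate 2.

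Over all genes 3 were called in the fit reported, 265 with no filter, 59 with DESeq2's Wald test, 705 at an unadjusted p under 0.05 and 1 at an adjusted p under 0.01. Of the other collagen genes, 31 processing, 6 receptor and 4 matrix genes were tested in the fit reported, and 0 were called. There were 2 with no filter (FN1 and BGN, beside 1.01% of all genes) and 1 with DESeq2's Wald test (FN1, beside 0.225%). At an unadjusted p under 0.05 in the fit reported there were 4, beside 4.74% of all genes. The fits with no filter, with the replicate block alone and with a library left out set no limit on how far the spread of a gene was drawn to that of all genes, whereas the fit reported had 3.61 prior degrees of freedom. The cause of these differences was not tested. CBX7 ranged from 7.26 to 7.44 with each library left out and was called in each.

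The same replicate numbers occur in both groups, and no source says that they mark a batch. The deviations of libraries with the same number had a correlation of 0.31 over the 14862 genes tested and of 0.61 over the 11077 with at least 100 counts on average. Genes are not independent replicates, and 2 pairs cannot establish a pairing. With the replicate block 3 chains (COL8A2, COL13A1 and COL9A3) and 2 other collagen genes (FN1 and BGN) were called. Over all genes there were 361, or 2.43%. The replicate block with the length correction called 4 chains (COL8A2, COL13A1, COL18A1 and COL6A1) and 3 other collagen genes, FN1 and BGN among them. Over all genes it called 270, or 1.82%.

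The TPM scales moved the median log2 change over all genes to -0.081 (pseudocount 1) and -0.10 (pseudocount 0.1). Signs changed for genes near 0. COL8A1 was at -0.0015 in the replicate block, -0.0048 in the replicate block with the length correction, and -0.11 and -0.12 on the TPM scales of pseudocount 1 and 0.1. With the length correction, alone and with the block, COL7A1 was at 0.079 and 0.060, COL4A1 at 0.012 and 0.0061, and COL16A1 at 0.049 and 0.052. On the same TPM scales COL5A2 was at -0.036 and -0.037, COL9A2 at -0.17 and -0.41, P4HB at -0.058 and -0.058, SERPINH1 at -0.014 and -0.014, and BMP1 at -0.11 and -0.13. With each library left out, ranges that crossed 0 were -0.147 to 0.258 for COL5A2, -0.294 to 0.0211 for COL4A2, -0.858 to 0.157 for COL12A1, -0.273 to 0.268 for COL8A1, -0.474 to 0.207 for COL4A1, -0.0808 to 0.384 for COL27A1, -0.612 to 0.103 for COL4A5, -0.261 to 0.161 for COL16A1, -0.225 to 0.362 for COL9A2, -2.20 to 0.169 for COL6A3 and -0.103 to 0.204 for P4HB. Ranges of one sign that spread over 1.5 times from the value reported included -0.632 to -0.00781 for COL4A6, 0.251 to 0.925 for COL9A3 and 0.0462 to 0.0905 for BMP1. COL8A2 stayed between 2.36 and 2.81. The count of 16 chains made was 16 with each library left out, and 23, 14 and 15 with a mean of at least 0.1 TPM, of at least 5 TPM and with 1 TPM in every library.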
